A study of Danio rerio with 16 samples.

Results

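The lipid-sensing nuclear receptors described here are 10 zebrafish genes: the peroxisome proliferator-activated receptor (PPAR) genes pparaa, pparab, pparda, ppardb and pparg, the PPAR coactivator gene ppargc1a, the liver X receptor (LXR) gene nr1h3, the farnesoid X receptor (FXR) gene nr1h4, the small heterodimer partner (SHP) gene nr0b2a and nr5a2, which encodes the counterpart of liver receptor homolog 1. They were taken by symbol from a list, and all 10 were among the 36109 gene symbols of the count table and among the 24084 genes that passed the filter on low counts. The study sequenced RNA of whole zebrafish embryos in 4 groups of 4 libraries: siblings, labelled sib and untreated, and embryos labelled as a CRISPR/Cas9-mediated knockout of both hnf4a and hnf4b, each at 34 and 48 hours post-fertilisation (hpf). The labels do not give the alleles, the genotypes among the siblings, the number of embryos per library or whether repeats came from separate clutches, so p-values measure the spread between these libraries, which may be technical. By its title the series asks about the release of lipid from the yolk and later growth. Each stage is also labelled as a batch of its own, so batch and stage cannot be told apart, while siblings and knockouts of a stage share a batch.

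Nuclear receptors are transcription factors that most often bind a small lipophilic molecule and then change their partners on DNA. PPARs respond to fatty acids and, like LXR and FXR, which respond to oxysterols and bile acids, bind DNA together with a retinoid X receptor (RXR). In mammals FXR switches on SHP in liver and intestine, and SHP, which lacks a DNA-binding domain, represses other receptors, among them liver receptor homolog 1 and Hnf4a. Hnf4 proteins occupy DNA elements close to those of PPAR and RXR, and act in liver, gut and, in fish embryos, the yolk syncytial layer, which exports yolk lipid.

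Total counts lay between 34588058 and 43194625 per library. Even numbers made up 66.6% of all counts from 1 to 5 and 74.8% of those from 6 to 20, against 51.6% above 1000, so that a low count may stand for fewer sequenced fragments than its number. Neither targeted gene was called between the genotypes. At 34 hpf hnf4a had a log2 fold change (knockout over sibling) of -0.08 ± 0.27 (SE) and hnf4b of -0.91 ± 0.48, with adjusted p = 0.897 and 0.269 in edgeR's quasi-likelihood test, and without sibling replicate 1 hnf4b was at -0.29. At 48 hpf hnf4a was at -0.15 ± 0.27 and hnf4b at -0.83 ± 0.49, with adjusted p = 0.789 and 0.329 in the same test. These transcript levels do not check the labels, since an allele can leave its transcript in place.

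Of the 10 genes only nr0b2a was called between the genotypes at both stages, and its transcript was higher in the knockouts. At 34 hpf its level was 51.4, 29.8, 60.4 and 61.2 CPM (counts scaled by TMM to a common library size) in sibling replicates 1 to 4, and 85.2, 149, 115 and 137 CPM in knockout replicates 1 to 4. Every knockout library lay above every sibling library. The means were 50.7 ± 14.6 and 122 ± 28.0 CPM (SD, n = 4), a 2.40-fold rise (log2 fold change 1.26 ± 0.26, adjusted p = 0.00517, edgeR's quasi-likelihood test with Benjamini-Hochberg adjustment over all genes). In whole embryos a change in the number of cells of a type and a change in the RNA per cell cannot be told apart.

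At 48 hpf the siblings stood at 52.4, 34.98, 43.5 and 36.2 CPM of nr0b2a and the knockouts at 47.3, 96.0, 116 and 103 CPM. Knockout replicate 1 lay within the range of the siblings, and the other 3 knockouts lay above it. The fold change was 2.17 (log2 1.12 ± 0.26, adjusted p = 0.0107), and without that library the log2 fold change was 1.298 (adjusted p = 0.00175). The effects at the 2 stages differed by -0.14 on the log2 scale (95% interval -0.91 to 0.62, adjusted p = 0.991), an interval that leaves room for a change in either direction. The call at both stages was kept in all 25 alternative fits, with log2 fold changes of 1.08 to 1.39 at 34 hpf and 0.98 to 1.298 at 48 hpf.

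**Figure D1:**
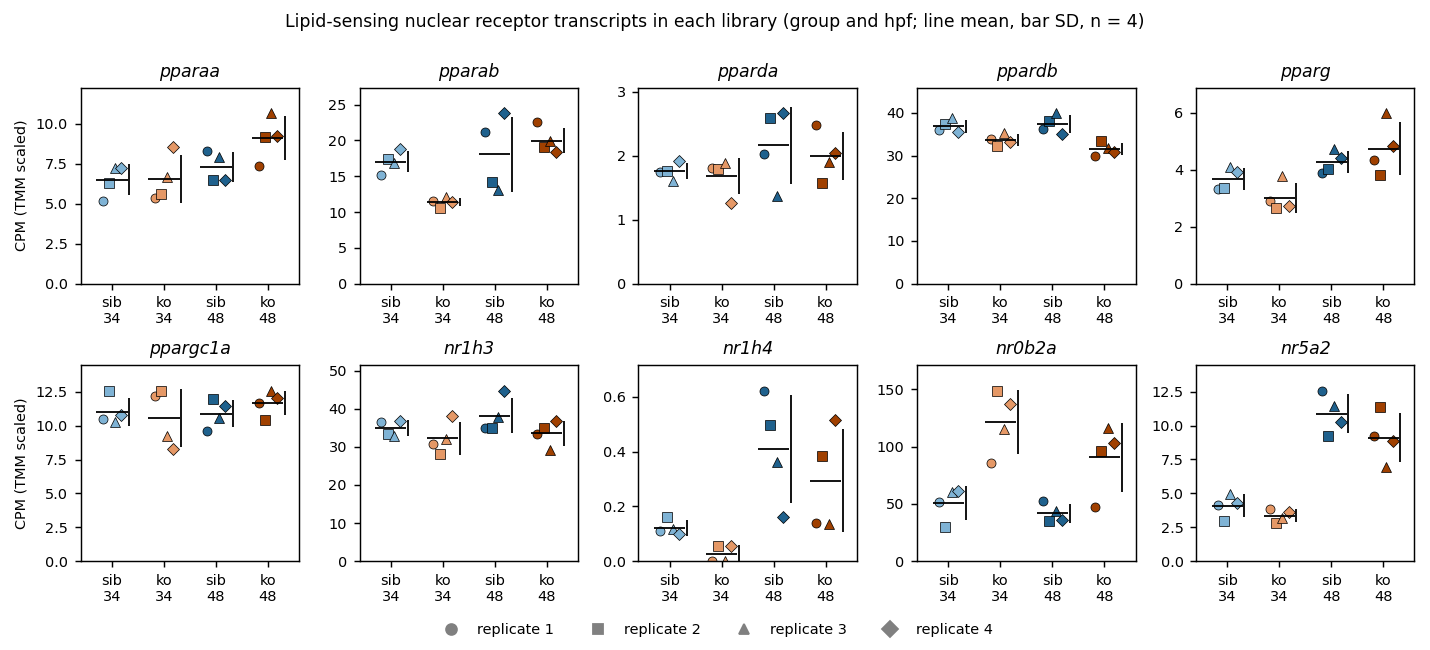
Level of each of the 10 receptor and cofactor genes in CPM (vertical axis, linear from 0, a scale per gene) in the 16 libraries, by group (sib, sibling; ko, knockout) and stage (34 or 48 hpf); symbols mark the repeat number, lines the mean and bars the SD. The nr0b2a panel shows all knockouts above all siblings at 34 hpf (85.2 CPM or more against 61.2 CPM or less), and the nr5a2 panel shows both genotypes higher at 48 hpf.

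The PPAR alpha genes encode the receptors that in mammals switch on fatty acid oxidation in fasting liver. Of this pair, pparab was lower in the knockouts at 34 hpf. Siblings had 15.1, 17.4, 16.9 and 18.7 CPM and knockouts 11.6, 10.6, 12.1 and 11.3 CPM. The 2 sets of libraries did not overlap, and the log2 fold change was -0.58 ± 0.16 (adjusted p = 0.0262), a 1.49-fold fall. The call is near its threshold: it was lost when any of sibling replicates 2, 3 and 4 or knockout replicates 2 and 3 was left out (adjusted p of at most 0.0737). Over all 16 omissions the log2 fold change lay between -0.63 and -0.53.

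At 48 hpf pparab did not pass the test. The siblings were split, with 21.2 and 23.8 CPM in replicates 1 and 4 and 14.3 and 13.1 CPM in replicates 2 and 3, while the knockouts lay at 22.5, 19.1, 19.9 and 18.4 CPM, inside that range. The log2 fold change was 0.14 (95% interval -0.18 to 0.47). The difference between the knockout effects of the 2 stages was 0.72 ± 0.22 on the log2 scale. Its unadjusted p was 0.00425, and it failed the adjustment over all genes (adjusted p = 0.299, and 0.106 to 0.552 over the alternatives).

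Its paralog pparaa gave no call between the genotypes. At 34 hpf siblings had 5.20, 6.30, 7.23 and 7.27 CPM and knockouts 5.34, 5.59, 6.69 and 8.59 CPM, with a log2 fold change of 0.01 (95% interval -0.35 to 0.37). At 48 hpf the siblings were at 8.29, 6.52, 7.96 and 6.52 CPM and the knockouts at 7.36, 9.20, 10.7 and 9.27 CPM. Here 3 of 4 knockouts lay above all siblings, an order whose share over all genes was not counted. The log2 fold change was 0.32 (95% interval -0.04 to 0.67, adjusted p = 0.273). In a comparison chosen after the data were seen, the log2 ratio of pparaa to pparab, a within-library ratio, was 0.57 ± 0.17 higher in knockouts than in siblings at 34 hpf. The groups did not overlap (exact permutation test, two-sided, p = 0.0286, the smallest that 4 against 4 can give, and 0.114 after adjustment over the 4 ratios tested). With pparaa at 0.01 and pparab at -0.58, this ratio largely restates the lower pparab and is not separate support for it.

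The PPAR delta genes encode receptors known in mammals from most tissues and from oxidative muscle. The transcript of ppardb was slightly lower in the knockouts at 48 hpf, with 36.1, 38.2, 40.0 and 35.2 CPM in siblings and 29.9, 33.4, 31.8 and 30.9 CPM in knockouts. The groups did not overlap, and the log2 fold change was -0.25 ± 0.07 (adjusted p = 0.0331), a 1.19-fold fall. The replicate block ended the call (adjusted p = 0.0623), as did upper quartile scaling (0.0509), the lack of a filter on low counts (0.0715), a fit of only the compared libraries (0.0518) and the omission of sibling replicates 2 or 3 or knockout replicates 1, 3 or 4 (at most 0.1201).

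At 34 hpf ppardb stood at 35.9, 37.3, 38.7 and 35.5 CPM in siblings and 33.8, 32.1, 35.4 and 33.1 CPM in knockouts. The libraries did not overlap here either, with 35.5 CPM in the lowest sibling and 35.4 CPM in the highest knockout. The log2 fold change of -0.13 ± 0.07 did not pass (adjusted p = 0.270). For pparda the ranges were 1.60 to 1.92 CPM and 1.26 to 1.88 CPM at 34 hpf, and 1.37 to 2.67 CPM and 1.58 to 2.48 CPM at 48 hpf, for siblings and knockouts in this order. The groups overlapped, and the 95% intervals of its log2 fold change ran from -0.56 to 0.43 and from -0.60 to 0.38. The ratio of pparda to ppardb moved by 0.06 and 0.16 on the log2 scale at the 2 stages (exact permutation p = 0.657 and 0.629).

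The gene pparg encodes the PPAR known in mammals for adipocyte formation. At 34 hpf it stood at 3.34, 3.37, 4.08 and 3.91 CPM in siblings and at 2.89, 2.64, 3.79 and 2.73 CPM in knockouts, where 3 of 4 knockouts lay below all siblings. Each knockout also lay below the sibling of its number. The share of all genes with either order was not counted, and the labels do not say what a number marks. The log2 fold change was -0.28 ± 0.17 (adjusted p = 0.346, and 0.277 with the replicate block). At 48 hpf siblings had 3.89, 4.03, 4.73 and 4.42 CPM and knockouts 4.34, 3.83, 5.99 and 4.82 CPM. These overlapped, with a log2 fold change of 0.15 ± 0.17 (adjusted p = 0.643).

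The coactivator gene ppargc1a encodes PGC-1 alpha, known in mammals for turning on mitochondrial genes. Its level was 10.3 to 12.5 CPM in siblings and 8.29 to 12.6 CPM in knockouts at 34 hpf, and 9.62 to 12.0 CPM and 10.4 to 12.5 CPM at 48 hpf. The groups overlapped at both stages. The 95% intervals of its log2 fold change, -0.34 to 0.23 and -0.18 to 0.38, bound any change to less than that of nr0b2a.

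The oxysterol receptor gene nr1h3 likewise gave no call. At 34 hpf siblings were at 36.5, 33.4, 32.9 and 36.7 CPM and knockouts at 30.6, 28.1, 32.0 and 38.2 CPM. At 48 hpf siblings were at 34.97, 35.04, 37.7 and 44.7 CPM and knockouts at 33.3, 34.94, 29.1 and 36.9 CPM. In both stages 3 of 4 knockouts lay below all siblings and the fourth, replicate 4, did not. At 48 hpf each knockout lay below the sibling of its number. The share of all genes with either order was not counted. The log2 fold changes were -0.11 ± 0.11 (adjusted p = 0.580) and -0.18 ± 0.11 (adjusted p = 0.327, and 0.254 with the replicate block).

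The bile acid receptor gene nr1h4 was close to the limit of detection. It had 4, 6, 4 and 4 counts in siblings and 0, 2, 0 and 2 in knockouts at 34 hpf, and 24, 18, 14 and 6 against 6, 16, 6 and 22 counts at 48 hpf. All 14 counts above 0 were even numbers. The libraries of 34 hpf did not overlap, but the test gave adjusted p = 0.148. With counts halved the ratio of knockout to sibling at 34 hpf was 0.214 (95% exact binomial interval 0.0225 to 1.04, from 2 and 9). At 48 hpf it was 0.706 (0.399 to 1.23). Both of these intervals included equal levels. With the counts as deposited, the 95% interval of the log2 fold change at 34 hpf was -3.88 to -0.26. Its unadjusted p was 0.0271 (edgeR's quasi-likelihood test), and it failed the adjustment over all genes. The intervals from halved counts cover counting error only.

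The gene nr5a2 encodes a receptor that binds DNA as a monomer and is known from endoderm, liver and exocrine pancreas. At 34 hpf it had 4.13, 2.99, 4.96 and 4.32 CPM in siblings and 3.84, 2.78, 3.21 and 3.61 CPM in knockouts. At 48 hpf it had 12.6, 9.26, 11.4 and 10.2 CPM and 9.24, 11.4, 6.96 and 8.89 CPM. The genotypes overlapped at both stages. At 34 hpf each knockout lay below the sibling of its number, an order whose share over all genes was not counted. The log2 fold changes were -0.28 ± 0.18 (adjusted p = 0.374, and 0.371 with the replicate block) and -0.26 ± 0.17 (adjusted p = 0.408).

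Over the 10 genes, 1 rose and 1 fell in the knockouts at 34 hpf, and 8 were not called. Of all genes tested 9.30% were called at 34 hpf, 4.09% higher and 5.21% lower, so 2 of 10 is a count near the background. At 48 hpf 1 rose and 1 fell as well, against 10% of all genes (2417 of 24084; 4.76% higher and 5.28% lower), and with the replicate block 1 was called. The groups did not overlap for 4 of the 10 genes at 34 hpf and for 1 at 48 hpf, against 14.2% and 19.2% of all genes. The median log2 fold change of the 10 genes was -0.12 at 34 hpf and -0.01 at 48 hpf, beside 0.01 and 0.00 over all genes tested.

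**Figure D2:**
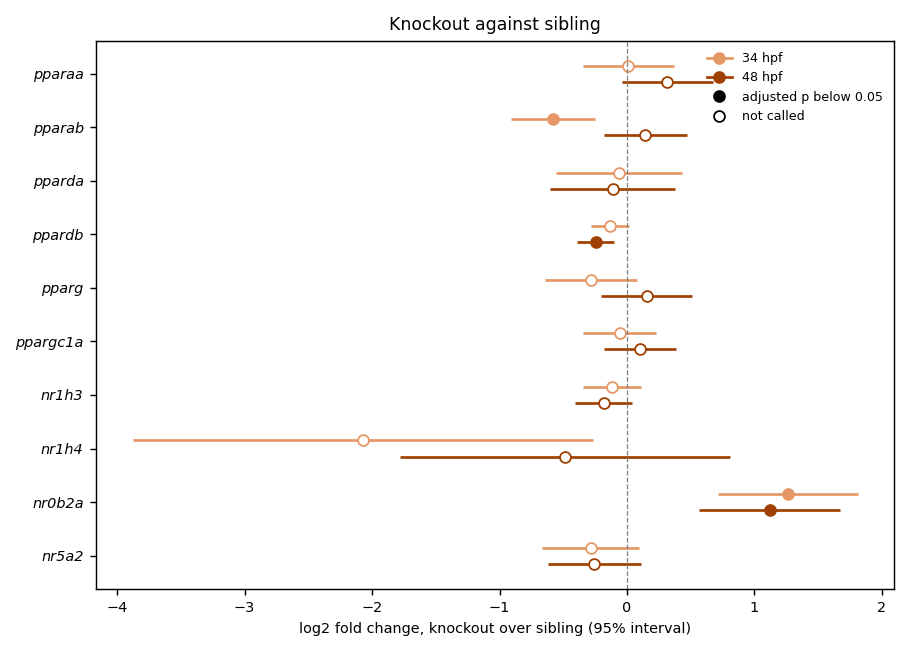
Log2 fold change of each gene in knockouts over siblings (horizontal axis) at 34 and 48 hpf, with 95% intervals from the fit of 4 libraries per group; filled points passed an adjusted p of 0.05. The points of nr0b2a lie at 1.26 and 1.12, those of pparab at -0.58 and 0.14, and the interval of nr1h4 at 34 hpf runs from -3.88 to -0.26.

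Between 34 and 48 hpf nr5a2 rose in both genotypes. Its level went from 4.10 ± 0.82 to 10.9 ± 1.44 CPM in siblings (SD, n = 4), a 2.65-fold rise (log2 fold change 1.41 ± 0.18, adjusted p = 8.72e-06). In knockouts it went from 3.36 ± 0.47 to 9.11 ± 1.80 CPM, a 2.71-fold rise (log2 fold change 1.44 ± 0.18, adjusted p = 1.24e-05). All 8 libraries of 48 hpf lay above all 8 of 34 hpf. The rises differed by 0.03 on the log2 scale, with a 95% interval of -0.49 to 0.55, and both calls were kept in all 25 alternatives.

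In the siblings nr5a2 was the only one of the 10 genes called between the stages, against 33.9% of all genes tested (18.3% higher and 15.7% lower), and the only one whose stages did not overlap, against 40.4%. In the knockouts 5 rose and 0 fell, against 27.7% of all genes called, 15.5% higher and 12.1% lower. For 4 of the 10, namely nr5a2, pparab, pparg and nr1h4, the stages did not overlap, against 24.6% of all genes. The gene nr1h4 had at most 6 counts per library at 34 hpf. It passed the filter on low counts through libraries of the later stage. Such a pass favours a rise, so the place of nr1h4 among the risen and the non-overlapping genes was not independent of the filter. Besides nr5a2 the called genes were pparab (log2 fold change 0.81 ± 0.16, adjusted p = 0.000824), pparg (0.65 ± 0.17, adjusted p = 0.00789), pparaa (0.48 ± 0.17, adjusted p = 0.0432) and nr1h4 (adjusted p = 0.00505). The stage comparisons share their libraries with the knockout comparisons, so that the low 34 hpf values of pparab enter both. The call of pparaa was lost in 14 of 25 alternatives (adjusted p of at most 0.129), and that of pparg with only the compared libraries (adjusted p = 0.0504). With only those libraries 2 of the 10 genes, nr5a2 and pparab, were called, while nr1h4 did not pass the filter and was not tested.

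The corresponding changes in siblings were 0.09 ± 0.15 for pparab, 0.22 ± 0.17 for pparg and 0.17 ± 0.17 for pparaa, and none passed (adjusted p = 0.715, 0.362 and 0.479). A call in the knockouts and none in the siblings does not show that the stage changes differed. The test of that difference is the genotype-by-stage term, the same for both readings, and it gave 0 calls among the 10 genes in edgeR, in DESeq2 and in limma-voom, with 1 unadjusted p below 0.05 in edgeR, that of pparab. Of all genes tested, 0.203% were called in it, 0.0872% higher and 0.116% lower. For pparg the term was 0.44 ± 0.24 (adjusted p = 0.781) and for pparaa 0.31 ± 0.24 (adjusted p = 0.899).

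The nr1h4 counts of the knockouts rose from 4 to 50 in all, and those of the siblings from 18 to 62. With counts halved the ratio of 48 to 34 hpf was 11.2 in knockouts (95% exact interval 2.79 to 97.3, counting error only). In siblings it was 3.39 (1.58 to 8.11). As nr1h4 passed the filter on low counts through libraries of the later stage, its rise in either genotype was not independent of the filter. Whether the rises differed is tested by the genotype-by-stage term. For nr1h4 it was 1.59 ± 1.04 (adjusted p = 0.855, edgeR's quasi-likelihood test) and was not called. The sibling rise missed the threshold (adjusted p = 0.0538) and passed it in DESeq2 (0.0478) and without knockout 34 hpf replicate 1 (0.0447) or sibling 48 hpf replicate 4 (0.0379).

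**Figure D3:**
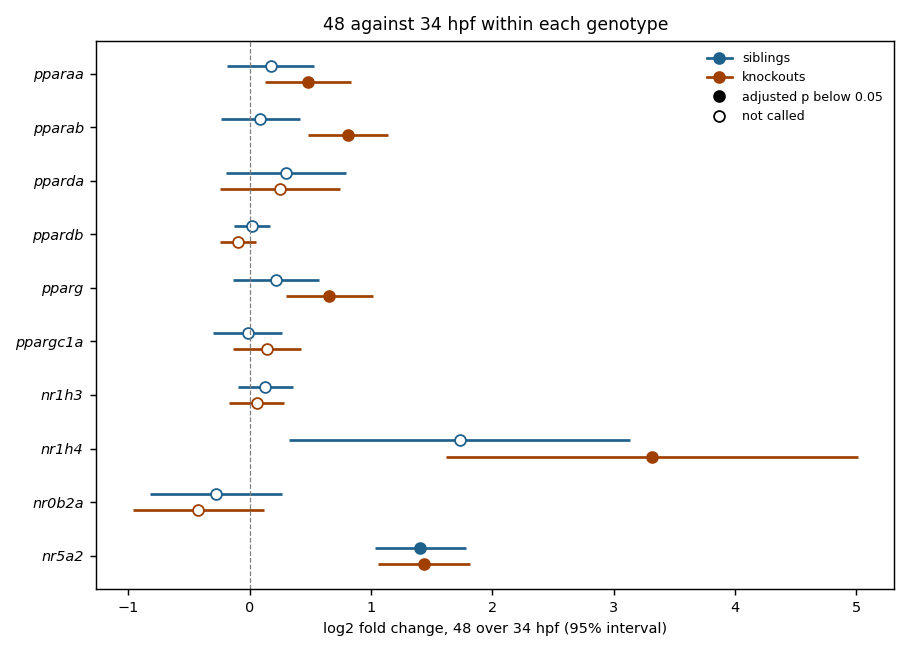
Log2 fold change of each gene at 48 over 34 hpf (horizontal axis) in siblings and in knockouts, with 95% intervals from the fit of 4 libraries per group; filled points passed an adjusted p of 0.05. The 2 points of nr5a2 lie at 1.41 and 1.44, while those of pparab lie at 0.09 in siblings and 0.81 in knockouts.

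By the order of its 4 group means, nr0b2a went from knockout 34 hpf (122 CPM) over knockout 48 hpf (90.6 CPM) and sibling 34 hpf (50.7 CPM) to sibling 48 hpf (41.7 CPM). Within each genotype the stages did not pass the test (adjusted p = 0.244 in knockouts and 0.448 in siblings). For pparab the order was knockout 48 hpf (19.98 CPM), sibling 48 hpf (18.1 CPM), sibling 34 hpf (17.0 CPM) and knockout 34 hpf (11.4 CPM), and the test passed only for the steps from the last group to its sibling and to its later stage among the 4 tested. For ppardb both sibling groups (37.4 and 36.9 CPM at 48 and 34 hpf) lay above the knockouts (33.6 and 31.5 CPM at 34 and 48 hpf).

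The genes with the most similar pattern were found by Pearson's correlation of log2 CPM over the 16 libraries among 15470 named genes. For nr0b2a they were ppp1r3cb (r = 0.92), a glycogen-targeting phosphatase subunit gene, and OTOP1 (r = 0.91). For nr5a2 they were dmbx1a and vldlr (both r = 0.97). For pparab they were LHX3 (r = 0.81) and march6 (r = 0.80). The libraries fall into 4 groups, which set much of such a value. Over deviations from the group means the closest genes were epc1b for nr0b2a (r = 0.90), gas1a for nr5a2 (r = 0.86) and chd1l for pparab (r = 0.84). Each is the highest of 15470 candidates over 16 libraries. Such a search can give a high r without a shared control, and this was not tested. Among the 9 receptors other than nr1h4 these deviations gave r from -0.60 to 0.61, the highest for pparaa with nr0b2a.

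The RXR genes, which encode the DNA-binding partners of the PPARs, LXR and FXR, gave 0 calls of 6 at either stage, where 9.30% and 10% of all genes were called. The unadjusted p was below 0.05 for rxrgb at 34 hpf (log2 fold change 0.46 ± 0.19, adjusted p = 0.144) and for rxrga at 48 hpf (-0.64 ± 0.21, adjusted p = 0.0577). DESeq2 and limma-voom called 0 at 34 hpf and 1 lower at 48 hpf. From 34 to 48 hpf 3 of the 6 rose in siblings and 0 in knockouts, against 18.3% and 15.5% of all genes, a difference whose genotype-by-stage term was called for 0 of 6.

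Of 21 related nuclear receptors in the table, 19 passed the filter on low counts. The genes nr0b2b, by symbol the paralog of nr0b2a, and nr5a5 did not pass and were not tested. Among the 19, 1 rose and 0 fell at 34 hpf, and 1 rose and 3 fell at 48 hpf. Of all genes, 4.09% were called higher and 5.21% lower at 34 hpf, and 4.76% and 5.28% at 48 hpf. The rise at 34 hpf was that of nr2f1a, a COUP transcription factor gene (0.29 ± 0.09, adjusted p = 0.0441). It was lost in 16 of 25 alternatives, the replicate block among them (0.0628). At 48 hpf rorab, a gene of the retinoid-related orphan receptors, was at -0.72 ± 0.11 (adjusted p = 0.000552), while it had been at 0.29 ± 0.11 at 34 hpf (adjusted p = 0.135). It was the only one of the 19 called in the genotype-by-stage term, the difference of the knockout effects (-1.005 ± 0.16, adjusted p = 0.0102). The estrogen-related receptor gene esrra, a PGC-1 alpha partner in mammals, fell at 48 hpf (-0.37 ± 0.09, adjusted p = 0.0109), as did roraa (-0.58 ± 0.17, adjusted p = 0.0366), whose call ended when any of sibling replicates 2, 3 and 4 or knockout replicates 3 and 4 of 48 hpf was left out (at most 0.113). The 1 that rose there was nr2f6b, another COUP family gene, from 29.8 ± 2.26 to 38.9 ± 3.42 CPM (0.39 ± 0.08, adjusted p = 0.00551). Of 18 coregulators carm1 and prmt1, both arginine methyltransferase genes, fell at 34 hpf (-0.40 ± 0.08 and -0.38 ± 0.08), and lpin1 rose at 48 hpf (0.88 ± 0.14, adjusted p = 0.000714). These calls stand beside 5.21% of all genes lower at 34 hpf and 4.76% higher at 48 hpf.

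Genes known in mammals as PPAR targets moved in both directions. At 34 hpf 2 of 36 rose and 4 fell, and at 48 hpf 7 rose and 10 fell, against 4.09% and 5.21% of all genes called higher and lower at 34 hpf and 4.76% and 5.28% at 48 hpf. Their median log2 fold change was -0.05 and -0.16, beside 0.01 and 0.00 over all genes. The pyruvate dehydrogenase kinase gene pdk2b rose at both stages, from 1.09 ± 0.11 to 4.89 ± 1.63 CPM at 34 hpf (2.16 ± 0.25) and from 1.82 ± 0.45 to 8.01 ± 1.19 CPM at 48 hpf (2.13 ± 0.24). At 34 hpf the transcription factor gene creb3l3a fell (-2.44 ± 0.47), and so did the liver-type fatty acid binding protein gene fabp1b.1, from 300.4 ± 73.6 to 46.5 ± 34.8 CPM (-2.69 ± 0.59), and the acyl-CoA synthetase gene acsl1b (-0.77 ± 0.19), whose call was lost with only the compared libraries (adjusted p = 0.0618) and without knockout replicate 3 (0.0557). The lipoprotein lipase gene lpl rose at 48 hpf (0.75 ± 0.11). At 48 hpf the fatty acid binding protein genes fabp3 and fabp11b changed in opposite directions (0.60 ± 0.10 and -1.29 ± 0.23). The lipid droplet gene plin2 (0.74 ± 0.18) and the lipase inhibitor gene angptl4 (0.72 ± 0.17) rose and the beta-oxidation gene hadhab fell (-0.50 ± 0.11) at 48 hpf, 3 genes named after their values were seen. The call of plin2 was lost without sibling replicate 3 or knockout replicate 1 (adjusted p of at most 0.0588). The 2 higher calls at 34 hpf came to 1 in 9 of 25 alternatives, and the 4 lower ones to 2 without knockout replicate 3.

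Genes known in mammals as LXR targets also went both ways. At 34 hpf 4 of 15 rose and 5 fell, and at 48 hpf 6 rose and 2 fell, with medians of -0.33 and 0.12. The gene lpl is in both the PPAR and the LXR list and counts among the higher genes of each at 48 hpf. Of all genes 4.09% rose and 5.21% fell at 34 hpf and 4.76% and 5.28% at 48 hpf, with medians of 0.01 and 0.00. The desaturase gene scd rose from 1.24 ± 0.39 to 8.62 ± 0.86 CPM at 34 hpf (2.79 ± 0.29) and from 0.64 ± 0.16 to 11.5 ± 4.91 CPM at 48 hpf (4.17 ± 0.31). The lipogenic transcription factor gene srebf1 rose by 1.26 ± 0.13 and 1.71 ± 0.13, and pltp, the phospholipid transfer protein gene, by 2.32 ± 0.22 and 2.84 ± 0.23 on the log2 scale. For apoea, an apolipoprotein E gene, the level fell from 219 ± 154 to 0.50 ± 0.54 CPM at 34 hpf and from 294 ± 107 to 0.23 ± 0.10 CPM at 48 hpf. The paralogs of the cholesterol exporter gene, named after their values were seen, differed in direction: abca1a had 56.7 ± 8.23 CPM in siblings and 96.7 ± 28.7 CPM in knockouts at 34 hpf (0.77 ± 0.16, adjusted p = 0.00672), and abca1b 171 ± 27.4 and 88.5 ± 30.6 CPM (-0.95 ± 0.22, adjusted p = 0.0108). At 48 hpf abca1a was again higher (0.76 ± 0.16, adjusted p = 0.00651) and abca1b at -0.45 ± 0.22 (adjusted p = 0.219). The call of abca1a at 34 hpf was lost with only the compared libraries (adjusted p = 0.0529).

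Of the bile acid and FXR list, 11 of 17 genes in the table passed the filter, and cyp7a1, the rate-limiting enzyme of bile acid synthesis, did not (at most 0.332 CPM in any library). At 34 hpf klb, the co-receptor gene for endocrine fibroblast growth factors, fell from 8.71 ± 1.57 to 1.11 ± 0.64 CPM (-2.98 ± 0.44, adjusted p = 0.000364), and 0 rose. At 48 hpf klb fell (-3.41 ± 0.46), and slc51a, a bile acid exporter subunit gene, rose from 0.66 ± 0.32 to 3.55 ± 1.41 CPM (2.43 ± 0.43, adjusted p = 0.00157). The receptor gene fgfr4 was called higher there (0.26 ± 0.07, adjusted p = 0.0294) and lost its call in 10 of 25 alternatives, the replicate block among them (0.0601). Of the 11 tested, 0 rose and 1 fell at 34 hpf, and 2 rose and 1 fell at 48 hpf. Of all genes, 4.09% were called higher and 5.21% lower at 34 hpf, and 4.76% and 5.28% at 48 hpf. In the list of the PGC-1 axis the citrate synthase gene cs fell at both stages (-0.43 ± 0.09 and -0.45 ± 0.09) and the mitochondrial deacetylase gene sirt3 rose at 34 hpf (0.64 ± 0.16), a call lost in 4 of 25 alternatives (adjusted p of at most 0.0877). The other 12 of 14 were not called at 34 hpf.

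**Figure D4:**
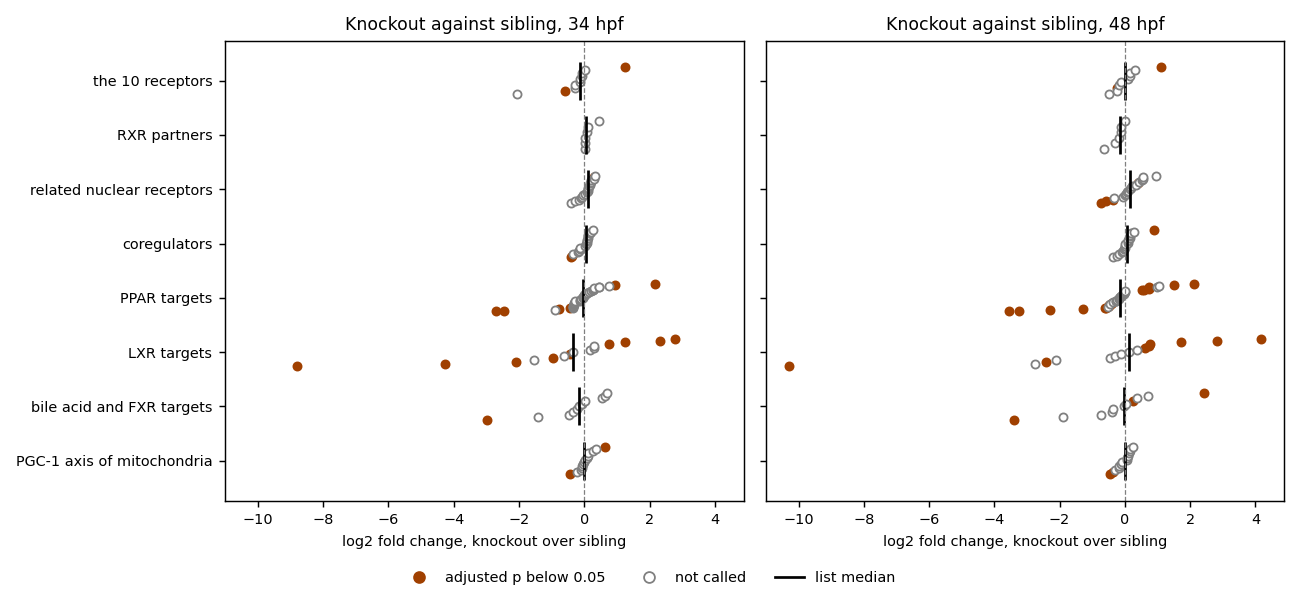
Log2 fold change of knockouts over siblings at 34 hpf (left) and 48 hpf (right) for the 10 receptors and 7 lists of partners and targets; each point is a gene, filled where its adjusted p was below 0.05, and the bar is the median of the list. The 6 RXR genes lie between -0.64 and 0.46, while LXR targets reach from -10.29 to 4.17 at 48 hpf.

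The summed transcripts listed as markers of hepatocytes, of the yolk syncytial layer and of intestine were lower in the knockouts at both stages. The summed level of 15 hepatocyte marker genes was 2883 to 3814 CPM in siblings and 474 to 1549 CPM in knockouts at 34 hpf, and 2095 to 3138 CPM and 145 to 404 CPM at 48 hpf. Of 12 tested, 8 and 10 fell and 0 rose. At 34 hpf 4 were not called. Among these, fabp10a and hamp had fold changes towards higher levels in the knockouts, and the rest towards lower levels. At 48 hpf fabp10a (-0.84 ± 0.69, adjusted p = 0.515) and hamp (1.76 ± 1.02, adjusted p = 0.323) were not called. Of all genes, 4.09% were called higher and 5.21% lower at 34 hpf, and 4.76% and 5.28% at 48 hpf. These shares also stand beside the calls of the yolk syncytial layer and intestine lists. Among the 15 only ahsg1 and gc were at 0 in a whole group, the knockouts of 34 hpf. Both failed the filter on low counts and were not tested. The sum of 12 yolk syncytial layer markers, with 0 at 0 in any group, was 12263 to 16460 CPM and 1501 to 4905 CPM at 34 hpf, and 10545 to 12993 CPM and 684 to 1606 CPM at 48 hpf. Of 11 tested, 7 fell at each stage, while 1 rose at 34 hpf, the protease gene lgmn (0.89 ± 0.10), and 2 at 48 hpf, lgmn (0.65 ± 0.10) and the protease gene ctslb (2.20 ± 0.45). From 34 to 48 hpf ctslb had log2 fold changes of -6.33 ± 0.51 in siblings and -4.38 ± 0.46 in knockouts. Whether ctslb marks the yolk syncytial layer in these whole embryos was not tested. The sum of 11 intestine markers, also with 0 at 0, was 324 to 383 CPM and 105 to 120 CPM at 34 hpf and 150 to 242 CPM and 84.0 to 87.4 CPM at 48 hpf. Their calls were mixed, with 4 of 11 lower and 0 higher at 34 hpf, and 3 lower and 2 higher at 48 hpf. The 3 lower were fabp2 (-4.72 ± 0.24), rbp2a (-5.69 ± 0.66) and vil1 (-1.94 ± 0.44). The 2 higher were the transcription factor genes atoh1b (0.85 ± 0.09) and cdx4 (1.62 ± 0.27). Which tissue of the whole embryo the transcripts of atoh1b and cdx4 came from was not tested, so the mix need not lie in the intestine. The median log2 fold change of the intestine list was -0.19 and -0.06. The part of these tissues in the changes of nr0b2a, pparab and ppardb was not tested.

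The sums of 12 exocrine pancreas markers, a tissue of nr5a2, stayed below 11 CPM in every library, with prss59.1 and ctrb1 at 0 in the siblings of 34 hpf. They ran from 5.58 to 9.04 CPM and from 6.26 to 9.57 CPM at 34 hpf in siblings and knockouts, and from 7.11 to 10.1 CPM and from 8.21 to 10.9 CPM at 48 hpf. Of 5 tested, 0 were called at 34 hpf, and at 48 hpf 1, the carboxypeptidase gene cpa1, fell from 0.31 ± 0.20 to 0.035 ± 0.024 CPM (adjusted p = 0.0181). Both levels of cpa1 were close to the limit of detection. It passed the filter on low counts through libraries other than those knockouts. Such a pass favours a fall, so the call of cpa1 was not independent of the filter. Of all genes, 9.30% were called at 34 hpf, and 5.28% were called lower at 48 hpf. The 14 muscle markers, of which 0 were at 0, summed to 39730 to 43560 CPM and 36796 to 54308 CPM at 34 hpf, and to 52176 to 57061 CPM and 46813 to 52247 CPM at 48 hpf. At 48 hpf the highest knockout lay just above the lowest sibling. Of the 14, 0 rose and 2 fell at 34 hpf, and 0 rose and 3 fell at 48 hpf, beside 5.21% and 5.28% of all genes called lower.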

How the data were processed

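Whole-embryo RNA of 16 libraries was sequenced after TRIzol extraction, with 1 µg per library going into the VAHTS Universal V8 kit, per the labels' protocols. The values the authors deposited are raw counts, 1 row per gene symbol. STAR 2.7.10b, featureCounts 2.0.6, Trim Galore 0.6.10 and FastQC 0.12.1 are named, as is the build GRCz11, per the submitters' processing notes. Whether reads or read pairs were counted, with which annotation and strand setting, and how multiply aligned reads were handled is not given in the sources used here, so paralogs and overlapping or antisense genes are uncertain. Total counts per library were 34588058 to 43194625.

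All genes that passed filterByExpr (24084 of 36109) were fitted at once with 4 groups (edgeR 4.0.16 in R 4.3.3, TMM, glmQLFit, glmQLFTest), and p-values were adjusted by Benjamini-Hochberg over all of them and called below 0.05. The script was tested on simulated data. CPM use TMM-scaled library sizes. Alternatives were DESeq2 1.42.0, limma-voom (limma 3.58.1), other scalings and filters, only the compared libraries, the replicate block, each library left out, and, chosen after seeing the data, halved counts. Ratios of paralogs used scipy 1.17.1.

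The members and lists were chosen with earlier results of these data known. All 10 receptors are reported, from each list those called among the 4 members with the smallest p in each knockout comparison (of the RXR genes, those with an unadjusted p below 0.05), other named list genes being chosen after their values were seen, and for likeness up to 2 genes per measure averaging 0 or more on the log2 CPM scale (prior count 2) and no clone or locus name. Levels are not compared between genes, since no transcript lengths were used. Within a stage, the deviations from the group mean of a sibling library and the knockout library of its number correlated at 0.155 to 0.430 over all genes. All 8 pairs lay above 0.1, and 4 of the 8 correlations were the highest among the numbers. The labels do not say what a number marks. The numbers were therefore used as pairs only in the replicate block, an alternative. The main fit left the pairing out, so its p-values do not take it into account. Every pair of libraries in a group differed by more than counting noise (mean chi-square per gene of at least 7.47).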

Additional observations from a re-analysis of the deposited data

Results flagged for a closer look

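Among 40 sets of 4 libraries (10 genes in 4 groups), 1 held a library far from the other 3, where about 1 in 20 sets is expected by chance. For pparda at 34 hpf, knockout replicate 4 had 1.26 CPM and the other knockouts 1.80, 1.79 and 1.88 CPM. Without it the log2 fold change of pparda at 34 hpf was 0.052 in place of -0.06, and neither was called.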

How the results depend on the processing

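Of 1227 refitted values of the 10 receptors, 1163 kept their direction and their side of the threshold, 29 lost a call, 3 gained it and 32 changed sign, 0 of them a called value. Without 1 library at a time, 1 to 2 of the 10 genes were called at 34 hpf, 1 to 2 at 48 hpf, 1 to 2 between the sibling stages and 4 to 5 between the knockout stages, while all genes called numbered 1386 to 3208, 1506 to 3521, 7072 to 9348 and 5561 to 6966, and 24 to 113 for the difference of the knockout effects. At 48 hpf 1 of the 10 was called with upper quartile scaling, with no filter, with only the compared libraries and with the replicate block, which ended no other call of a receptor. With only the compared libraries 1230 genes were called at 34 hpf, and 2 of the 10 between the knockout stages. DESeq2 called 177 genes for the difference in place of 49, and 2 of the 10 between the sibling stages. Upper quartile scaling called 1375 genes higher and 1078 lower at 34 hpf (56.1% higher), against 985 and 1255 (44.0%). The cause of these moves was not tested. In limma-voom pparaa at 34 hpf was at -0.0074, and the differences of pparda and nr5a2 at 0.0024 and -0.0098. Between sibling stages ppargc1a was at 0.0137 with only the compared libraries and at 0.0130 with counts halved, in place of -0.0155.

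Omissions of a library changed the sign of uncalled values. The log2 fold changes at 34 hpf ran from -0.15 to 0.092 for pparaa, from -0.12 to 0.052 for pparda, from -0.16 to 0.043 for ppargc1a and from -0.37 to 0.10 for hnf4a. At 48 hpf they ran from -0.28 to 0.0055 for pparda and from -0.26 to 0.015 for hnf4a. The limits of the difference were -0.21 and 0.069 for pparda, -0.15 and 0.022 for nr1h3, -0.31 and 0.044 for nr0b2a and -0.095 and 0.15 for nr5a2. Between sibling stages they were -0.073 and 0.21 for pparab, -0.014 and 0.065 for ppardb and -0.062 and 0.070 for ppargc1a. Across stages the repeat numbers did not pair the libraries (5 of 8 correlations above 0.1, lowest -0.21), and the block gave 8285 and 6713 calls there in place of 8171 and 6666. With a CPM of at least 1 in 4 libraries, only the compared libraries or halved counts, nr1h4 was in whole or part not tested. The counts of nr1h4 were low (0 to 24 per library).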
